A study of Mus musculus with 6 samples.

Results

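Clec3b, Pi16, Dpt, Cd34, Cd248, Ly6a, Pdgfra and Dpp4 are genes used to recognise fibroblasts of the vessel adventitia, of loose connective tissue and of the cranial sutures. They were followed here in sorted calvarial osteocytes. A gene was represented by each probe set whose platform annotation named that gene alone, which gave 13 of the 45101 probe sets on the array and 7 of the 8 genes. Pdgfra had 3 probe sets, Dpp4 had 4, Pi16 had 2, and Clec3b, Dpt, Cd34 and Cd248 had 1 each. No probe set was listed for Ly6a alone, so Ly6a was not analysed here.

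The arrays compared 3 samples from mice with an osteocyte-specific knockout of estrogen receptor alpha (ERαΔOcy/ΔOcy) and 3 from control littermates, which the sample names call WT and the extraction protocol ERαflox/flox. All were labelled female, strain C57/BL6, 10 to 12 days old, and all carried Dmp1-GFP, a green fluorescent reporter driven by the promoter of a gene of bone-embedded cells. The labels do not say which promoter drives Cre or whether controls carried it. Thus Cre itself and the loss of ERα cannot be told apart. The design text states that RNA was not pooled, whereas the protocol speaks of pooled calvarial tissue, so the arrays of a genotype may share tissue and p-values may measure technical spread only. Sutures were removed before 6 digestions of 30 min, cells of fractions 4 to 6 were sorted for green fluorescence, and the gate held 10% to 15% of cells from marked mice and 0.8% to 1.0% from unmarked mice.

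Fibroblasts that carry these markers lie around vessels, in fascia and beside bone and muscle, and serve as a reservoir of matrix-producing cells. The products divide into secreted proteins of the matrix or fluid (Clec3b, Pi16, Dpt) and proteins of the cell surface (Cd34, Cd248, Ly6a, Pdgfra, Dpp4). Several of the surface proteins are shared with other cells: Cd34 is also made by endothelial and blood-forming cells, Cd248 by pericytes and Pdgfra by many mesenchymal progenitors, including those of bone.

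RefSeq start sites with an upstream window of 250 bases (build GRCm38.p6) were found for 5 of the 8 genes. For Dpt and Cd34 the start site is the outermost start of the annotated gene, whereas for Pi16, Dpp4 and Pdgfra it lies 86, 84 and 929 bases inside the gene, as the start of another transcript. Sequence before the gene is shown for 3 genes whose levels varied together between arrays, 164 bases for Pi16 and 250 for Dpt and Cd34. It is written 5′ to 3′ along the gene, and capitals mark the letters of any motif found.
Pi16: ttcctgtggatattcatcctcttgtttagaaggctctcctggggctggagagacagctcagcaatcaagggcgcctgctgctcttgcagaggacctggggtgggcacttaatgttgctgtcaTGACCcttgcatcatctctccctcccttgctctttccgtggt
Dpt: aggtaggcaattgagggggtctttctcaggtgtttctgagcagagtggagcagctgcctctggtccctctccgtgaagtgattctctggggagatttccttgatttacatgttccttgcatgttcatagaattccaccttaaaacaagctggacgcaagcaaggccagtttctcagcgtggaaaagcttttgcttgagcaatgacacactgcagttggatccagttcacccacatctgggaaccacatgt
Cd34: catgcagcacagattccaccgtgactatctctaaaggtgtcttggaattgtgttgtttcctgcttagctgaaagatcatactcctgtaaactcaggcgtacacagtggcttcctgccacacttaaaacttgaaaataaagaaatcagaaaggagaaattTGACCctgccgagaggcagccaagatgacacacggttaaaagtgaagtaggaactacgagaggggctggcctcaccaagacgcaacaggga
These stretches lie at chr17:29318632-29318795, chr1:164796413-164796662 and chr1:194938571-194938820, all on the plus strand. The Pdgfra window lies wholly inside its gene and is not shown.

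The search covered both strands of the 5 whole windows for the full palindromic estrogen response element, its single arm GGTCA, the TATA box TATAAA, the CCAAT box, the GC box GGGCGG, the AP-1 site TGANTCA and the TEAD site GGAATG. Each full element holds the arm on both strands. The full element was in 0 of the 5 windows and in 0.0639% of 32851 windows of the same length. Its single arm was in 2 of the 5, with the letters TGACC 128 to 124 bases before the start site of Pi16 and 91 to 87 bases before that of Cd34, and in 35.2% of all windows. The window of Pi16 also held CCAAT, in the part inside the annotated gene, a motif found in 33.8% of windows. Dpt and Pdgfra had no match to any of the 7, and the window of Dpp4, not shown, held TATAAA and GGAATG, each alone among the 5 and found in 12.4% and 12.6% of all windows.

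Array medians of the deposited signal lay between 20.2 and 28.6 in knockout arrays and between 18.7 and 22.7 in control arrays. Levels below are log2(signal + 16) after quantile normalisation, on which differences of dim genes are understated. Across tested genes Pearson's r was 0.984 to 0.988 between knockout arrays and 0.939 to 0.969 between control arrays, and control replicate 2 stood closer to knockout replicate 1 (0.974) than to control replicates 1 (0.939) and 3 (0.953). The osteocyte genes Dmp1 and Phex had signals of 5637 to 7767 and of 1896 to 2385 in knockout arrays, against 6084 to 7983 and 1776 to 2072 in control arrays, while Fgf23 was at 10.4 or less throughout. The dimmest of 3 Esr1 probe sets had signals of 1.0, 1.0 and 2.5 in knockout arrays and of 20.2, 11.6 and 13.3 in control arrays, and the other 2 overlapped between the groups. Where these probe sets lie relative to the deleted part of Esr1 is not known here, so Esr1 does not check the labels.

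By limma with Benjamini-Hochberg adjustment over 10916 genes, 0 of the 6 tested markers passed an adjusted p of 0.05 in either direction, and 0% of all genes passed. The marker differences were nevertheless far from uniform. Clec3b, Dpt, Cd34 and Pi16 had lower means in knockout arrays, by -0.52 to -1.31 on the log2 scale, and Pdgfra and Cd248 lay within 0.2 of 0. At an unadjusted p of 0.05, 0 of the 6 passed, against 4.69% of all genes in the lower and 5.85% in the higher direction. The groups overlapped for all 6, while 17% of all genes had groups without overlap. Differences of -0.5 or lower were found for 4 of the 6 markers and 2.66% of all genes, and 5 of the 6 lay below 0, as did 51.7% of all genes. The controls spread widely: control replicates 1 and 3 had the highest signal of Clec3b, Dpt, Cd34 and Pi16 among the 6 arrays, and control replicate 2 the lowest or, for Dpt, the next to lowest.

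**Figure D1:**
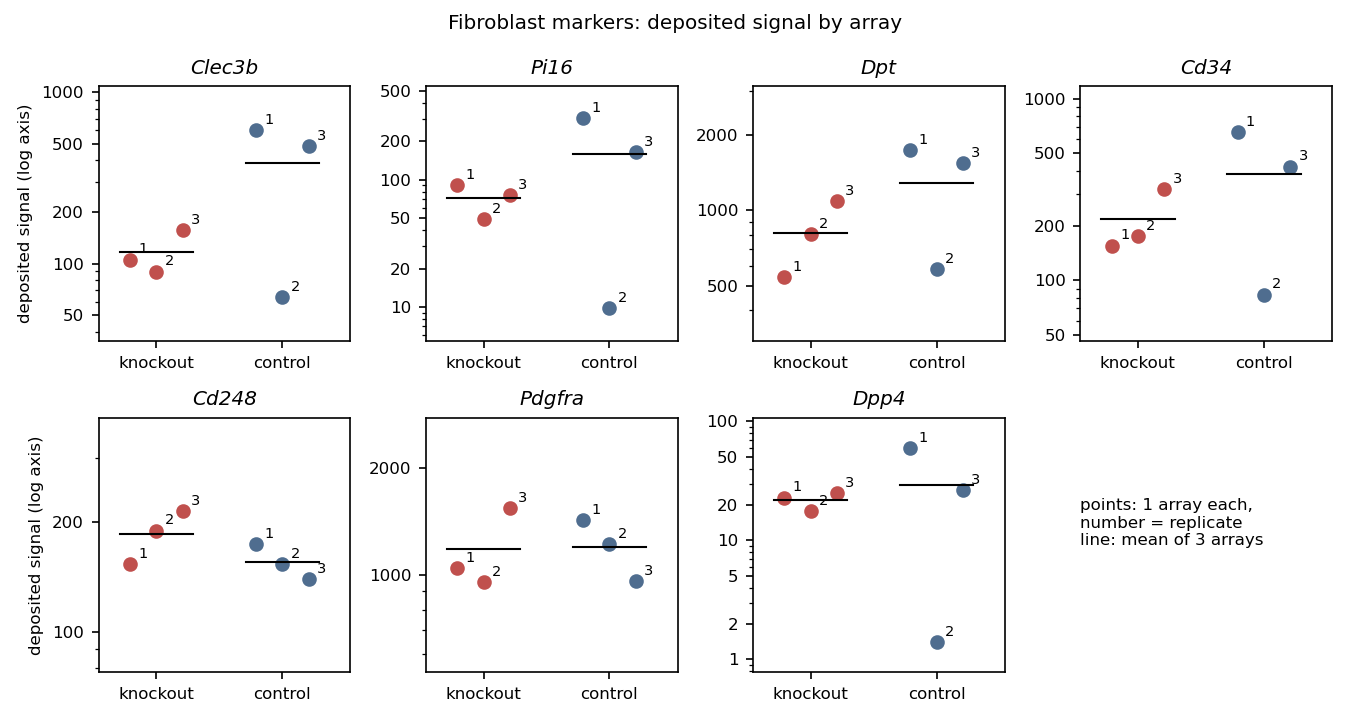
Deposited signal (vertical log axis, array signal units) of the brightest probe set of each of 7 fibroblast markers in 3 knockout (red) and 3 control (blue) arrays, each point 1 array with its replicate number and each line the mean of a group. Control replicates 1 and 3 lie above the knockout arrays for Clec3b, Pi16, Dpt, Cd34 and Dpp4, while control replicate 2 lies below them except for Dpt.

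Clec3b encodes tetranectin, a secreted C-type lectin that binds plasminogen. Its signal was 105.6, 89.9 and 156.2 in knockout replicates 1, 2 and 3, against 602.5, 63.8 and 484.5 in control replicates 1, 2 and 3. The knockout arrays spanned 1.74-fold and fell inside the range of the controls, which spanned 9.44-fold. Its log2 level was 6.96 ± 0.15 in knockout and 8.26 ± 1.60 in control arrays (SD, n = 3 each), a difference of -1.31 with a 95% interval of -2.90 to 0.28 (limma adjusted p = 0.546).

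Pi16, peptidase inhibitor 16, is a secreted or membrane-tethered protein of the CAP family. The brighter of its 2 probe sets had signals of 90.1, 49.0 and 75.7 in knockout arrays and of 303.2, 9.7 and 163.8 in control arrays. All 3 knockout values lay between those of control replicate 2 and the other controls, and the control range was 31.3-fold. The log2 difference was -0.52, with a 95% interval of -2.43 to 1.39 (limma adjusted p = 0.857). Without control replicate 1 its sign turned, to 0.16. The second probe set had signals of 0.9 to 1.3 in knockout and of 1.3 to 2.9 in control arrays, near 0 on every array. After normalisation its groups did not overlap, which was so for 1 of the 13 probe sets in the lower direction and for 6.59% of all probe sets.

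Dpt encodes dermatopontin, a small matrix protein that binds decorin and the surface of collagen fibrils. Signals were 540.2, 801.7 and 1092.1 in knockout arrays and 1748.2, 581.7 and 1543.8 in control arrays. Knockout replicate 1, not control replicate 2, was the lowest array for Dpt. The log2 level was 9.55 ± 0.35 in knockout and 10.30 ± 0.85 in control arrays (SD, n = 3 each), a difference of -0.75 with a 95% interval of -1.66 to 0.17 (limma adjusted p = 0.552).

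Cd34, a sialomucin of the cell surface, had signals of 155.0, 175.3 and 318.7 in knockout arrays and of 653.2, 83.4 and 423.3 in control arrays. The groups overlapped through control replicate 2 alone. The log2 difference was -0.63, with a 95% interval of -2.05 to 0.80 (limma adjusted p = 0.757), and it was -0.14 without control replicate 1 and -0.32 without control replicate 3.

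Dpp4, a membrane peptidase that trims the ends of chemokines and gut hormones, was too dim for the gene test. Its brightest probe set had a mean log2 level of 5.19 in knockout and 5.28 in control arrays, under the filter at 5.37. The signal was 22.9, 17.6 and 25.1 in knockout arrays, against 60, 1.4 and 26.4 in control arrays, the order already seen for Clec3b, Pi16 and Cd34. Its other 3 probe sets had signals between 2.8 and 20 in knockout and between 1.7 and 35.8 in control arrays. In a fit over all 45037 probe sets, the 4 differences of Dpp4 ran from -0.06 to -0.40 (limma adjusted p = 0.739 to 0.971).

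Pdgfra and Cd248 behaved otherwise. Pdgfra, the receptor tyrosine kinase for platelet-derived growth factor, had signals of 1046.4, 958.1 and 1544.4 in knockout arrays and of 1426.1, 1223.6 and 962.6 in control arrays for its brightest probe set, so control replicate 2 was not set apart. The log2 difference was -0.18, with a 95% interval of -0.45 to 0.09 (limma adjusted p = 0.611), which as a fold of knockout over control spans 0.732 to 1.06. The other 2 probe sets of Pdgfra differed by -0.08 and -0.19. Under the deposited scaling, which moved the median of all tested genes to 0.14, the brightest was at -0.04 and the other 2 at 0.07 and -0.05. Cd248, endosialin, a C-type lectin of stromal cells and pericytes, had signals of 153.3, 189.5 and 214.5 in knockout arrays and of 174.1, 153.2 and 139.9 in control arrays. Its log2 difference was 0.08, with a 95% interval of -0.19 to 0.34 (limma adjusted p = 0.848), or 0.878 to 1.27 as a fold.

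The spread of the controls set the markers apart from each other. The SD of the 3 control levels was 1.90 for Pi16, 1.60 for Clec3b, 1.40 for Cd34 and 0.85 for Dpt, at percentiles of 97.4 to 99.7 among the tested genes, whose median was 0.18. For Pdgfra and Cd248 it was 0.15 and 0.02. In the knockout arrays the SD was 0.35 for Pi16, 0.15 for Clec3b, 0.32 for Cd34 and 0.35 for Dpt, against a median of 0.12 over the tested genes.

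**Figure D2:**
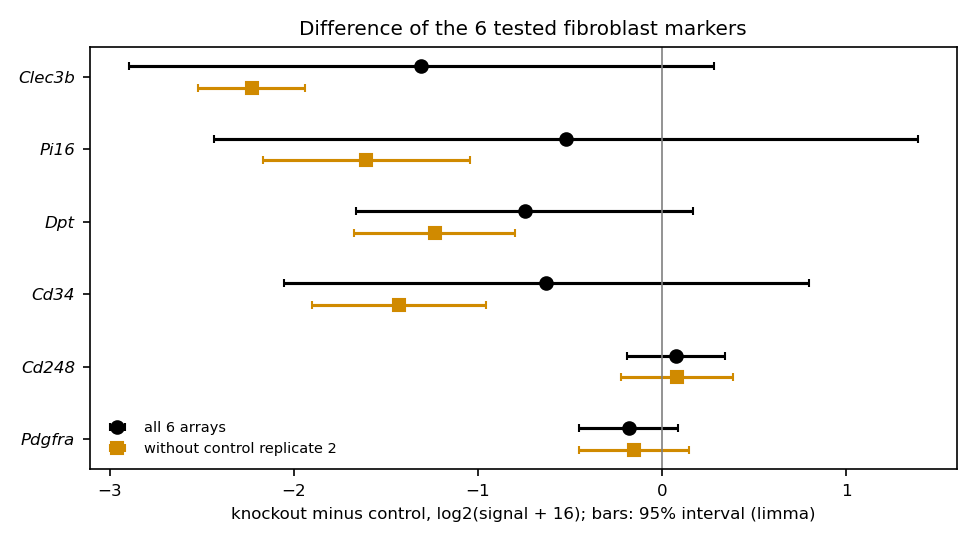
Knockout minus control difference in log2(signal + 16) (horizontal axis) of the 6 tested markers, with 95% intervals from limma, for all 6 arrays (black circles) and without control replicate 2 (orange squares). All 6 intervals hold 0 with all arrays, and without control replicate 2 those of Clec3b, Pi16, Dpt and Cd34 lie below 0.

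Leaving out control replicate 2 changed the calls. Clec3b, Pi16, Dpt and Cd34 were then lower in knockout arrays at an adjusted p under 0.05, 4 of 6 markers, where 1.88% of the tested genes were called lower. Clec3b was 4.69-fold lower (log2 difference -2.23 ± 0.12, SE, limma adjusted p = 0.00283), with levels of 6.96 ± 0.15 in 3 knockout arrays and of 9.16 and 9.21 in 2 controls. Cd34 was 2.69-fold (limma adjusted p = 0.0173), Pi16 3.04-fold (0.0208) and Dpt 2.35-fold lower (0.0212). All 3 knockout values of these genes lay below both remaining controls, as for 18% of the tested genes. Control replicate 2 was the lowest of the 6 arrays for Clec3b, Pi16 and Cd34, so leaving it out narrows the spread of the controls. The members were also chosen with earlier results of these data known, so these calls are a description and not independent support. Pdgfra and Cd248 stayed at -0.15 and 0.08 (limma adjusted p = 0.624 and 0.815). With any other single array left out, 0 of the 6 markers passed, and with 1 array left out at a time the median marker difference ran from -1.33 to -0.13, against -0.57 with all arrays and -0.01 for all tested genes. In the fit over all probe sets 0 of the 13 passed with all arrays, as did 0% of all probe sets, and at an unadjusted p of 0.05 again 0 passed, against 8.48%. Of the 13, 12 lay below 0, as did 51% of all probe sets, and 2 passed without control replicate 2, those of Clec3b and Cd34, both lower, where 0.255% of all probe sets were called lower.

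**Figure D3:**
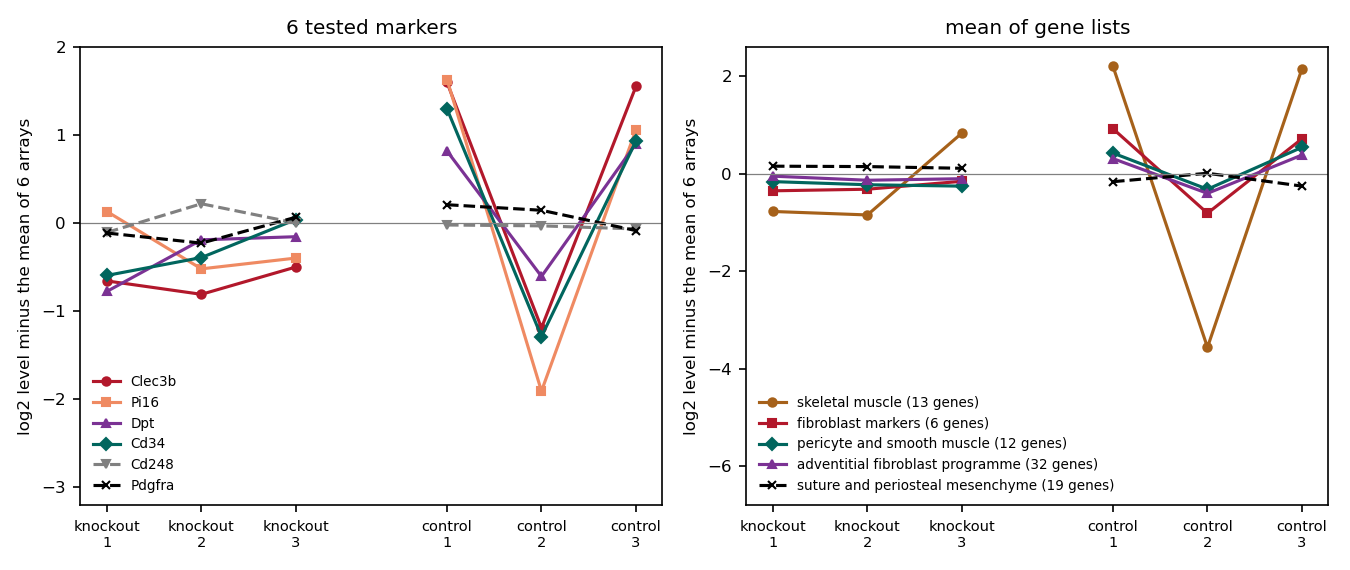
Level on each array minus the mean of the 6 arrays (vertical axis, log2), for 6 markers (left) and for the mean of 5 gene lists (right), with lines joining the values of 1 gene or list within a genotype. Clec3b, Pi16, Dpt, Cd34 and the skeletal muscle list are high in control replicates 1 and 3 and low in control replicate 2, while Pdgfra and Cd248 stay near 0. The suture list lies between 0.11 and 0.15 in knockout arrays and between -0.25 and 0.01 in control arrays.

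Centred on its own mean, the average of the 6 markers stood at -0.35, -0.32 and -0.16 in knockout replicates 1, 2 and 3 and at 0.92, -0.81 and 0.72 in control replicates 1, 2 and 3. As a measure of likeness over the 6 arrays, with no test, Pearson's r between pairs of Clec3b, Pi16, Dpt and Cd34 ran from 0.788 to 0.951. Pairs that included Cd248 or Pdgfra ran from -0.431 to 0.243. Of the tested genes other than the markers, those most like the average marker (r of 0.992 to 0.996 over 6 arrays, SD of at least 0.3) were Grp, Casq2, Rnf152, Synpo2l, Hspb7, Fhl1, Angptl1, Myhas, Cfl2 and Olfr78. Casq2 encodes a calcium-binding protein of the sarcoplasmic reticulum, Synpo2l and Fhl1 are cytoskeletal proteins of striated muscle, Cfl2 is the muscle cofilin and Hspb7 a small heat shock protein of heart and muscle. Those most like Cd34 were Casq1, Myh2 and Fhl1 (r of 0.993 to 0.998), and those most like Clec3b were Srl, Spry1 and Map3k20 (0.993 to 0.994). Pi16 had Aldh1a2, Fam217b and Septin8 nearest (0.985 to 0.994) and Dpt had Galnt16, Crip2 and Gask1b (0.984 to 0.985). Cd248 was nearest to Fdps, Sqle and Tmem97 (0.862 to 0.950), of which Fdps and Sqle are enzymes of sterol synthesis, and Pdgfra to Cyfip2, Rprd2 and Cog7 (0.911 to 0.964).

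Markers of skeletal muscle moved with these fibroblast genes across arrays. The 13 tested muscle genes summed to signals of 5059, 4677 and 22931 in knockout replicates 1, 2 and 3 and of 41760, 212 and 35853 in control replicates 1, 2 and 3. In control replicate 2 the signal of each lay between 1.3 and 44.4, under 5 for 5 of them, so the contractile genes were close to 0 there. Mb, the oxygen-storing myoglobin, had signals of 56.6, 91.5 and 281.1 in knockout arrays, against 1194.8, 17.3 and 1133.5 in control arrays. Without control replicate 2, 6 of the 13 muscle genes were called lower and 0 higher, where 1.88% and 0.788% of all tested genes were. Their median difference was then -2.53. Among the knockout arrays, replicate 3 had the highest muscle sum and also the highest Clec3b, Dpt and Cd34, at -0.50, -0.15 and 0.04 from their own means, whereas Pi16 was highest in replicate 1, at 0.13. The part of muscle-associated tissue in the marker values was not tested. In sorted bulk RNA, fewer cells of a type and less RNA per cell cannot be told apart.

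**Figure D4:**
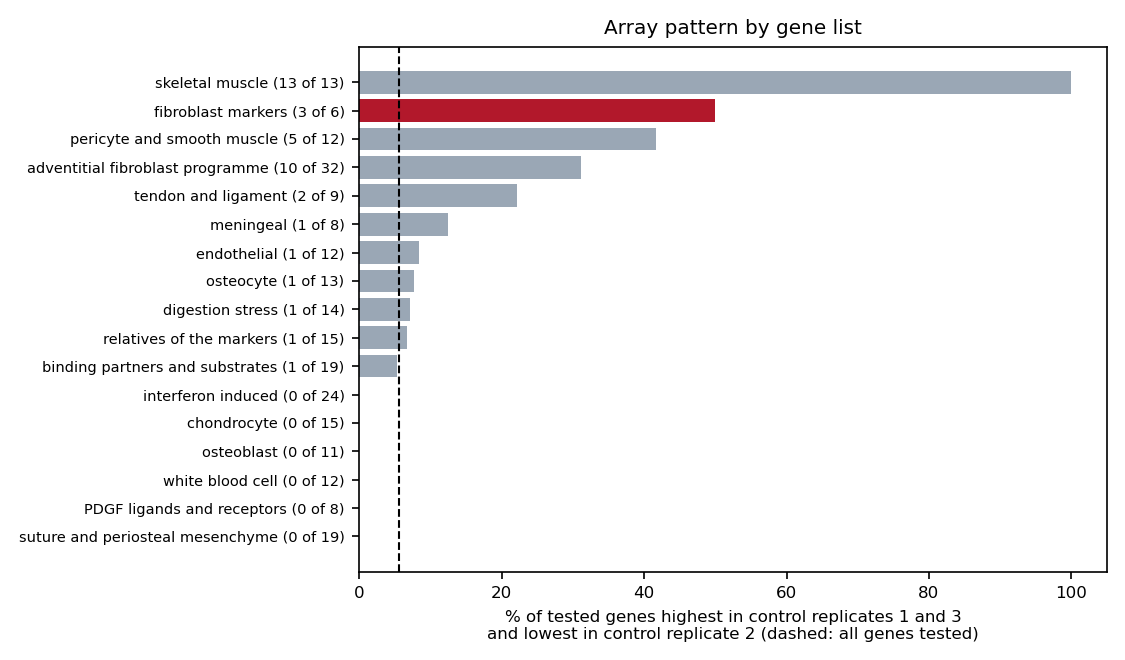
Share of the tested genes of each list drawn (horizontal axis, %) that were highest in control replicates 1 and 3 and lowest in control replicate 2. The count and number tested stand beside each list, and the share of all tested genes is a dashed line at 5.56%. Skeletal muscle stands at 100%, the fibroblast markers at 50%, and suture genes at 0%. The adipocyte list (2 of 4 genes, 50%) and the red blood cell list (0 of 2) had too few tested genes to be drawn.

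The same order of arrays, highest in control replicates 1 and 3 and lowest in control replicate 2, was counted in each gene list. It was chosen after the marker values were seen and is given as a description. It held for 3 of the 6 markers (Clec3b, Pi16 and Cd34), 13 of 13 skeletal muscle genes, 5 of 12 pericyte and smooth muscle genes and 607 of all 10916 tested genes, or 5.56%. The 5 pericyte and smooth muscle genes were Acta2, Cnn1, Des, Mcam and Tagln, while the other 7 did not. In this list 11 of 12 differences lay below 0, against 51.7% of all tested genes, with a median of -0.45. The list mean stood at -0.16, -0.23 and -0.26 in knockout replicates 1, 2 and 3. In control replicates 1, 2 and 3 it stood at 0.42, -0.32 and 0.54, so control replicate 2 was the lowest array. After normalisation 4 of the 12 were lower without overlap, against 7.76% of all tested genes, and 0 passed. Rgs5, a G protein regulator of pericytes, had signals of 6621, 5932 and 6620 in knockout arrays, against 9350, 8237 and 8011 in control arrays (-0.59 ± 0.07, SE, limma adjusted p = 0.120), whereas Pdgfrb was at -0.02. Without control replicate 2, 7 of the 12 were called lower and 0 higher, where 1.88% and 0.788% of all tested genes were. The deposited signals of the 12 summed to 15692 to 19078 in knockout arrays and to 25849, 16151 and 23325 in control replicates 1, 2 and 3. Of 12 endothelial genes, with which Cd34 is shared, only Tek showed the order. Cdh5, the endothelial cadherin, had signals of 64.1, 48.8 and 76.2 in knockout arrays, against 36.3, 40.5 and 30.3 in control arrays, without overlap (0.47, limma adjusted p = 0.360). Esam, an endothelial adhesion molecule, had 172.2, 181.1 and 188.7 in knockout arrays, against 312.5, 177.1 and 348.7 in control arrays (-0.69, limma adjusted p = 0.410). For Esam control replicate 2 lay near the knockout arrays, whereas for Cd34 it was the lowest array. Of the 12, 8 lay above 0 and 4 below. After normalisation Cdh5 and Erg were higher and Esam lower without overlap, against 9.23% and 7.76% of all tested genes. Erg, also in the suture list, differed by 0.62 (limma adjusted p = 0.267). Without control replicate 2 Esam and Tek were called lower (limma adjusted p = 0.0308 and 0.0293) and 0 higher. Fabp4 and Lpl, genes of lipid uptake, showed the order of arrays among 4 tested adipocyte genes, while Adipoq was at 28.9 or less on all arrays. Without control replicate 2 Fabp4 and Lpl were called lower (limma adjusted p = 0.0372 and 0.00903) and 0 of the 4 higher. The order held for 0 of 12 white blood cell, 0 of 24 interferon-induced, 0 of 11 osteoblast and 0 of 15 chondrocyte genes, and for 1 of 13 osteocyte genes, Fbln7. It held for 1 of 8 meningeal genes, Aldh1a2, and for 2 of 9 tendon genes, Cilp and Thbs4. The white blood cell and interferon-induced lists were instead lowest in control replicate 1, at -0.96 and -0.85 from their own means.

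Further genes of the adventitial fibroblast programme were examined through a list of 36, of which 34 were measured and 32 tested. With all 6 arrays 0 passed, 21 lay below 0 and 11 above, and the median was -0.14, against -0.01 and 51.7% below 0 for all tested genes. By p, the first 4 were Emilin2, a matrix glycoprotein, at -0.60 (limma adjusted p = 0.377), the growth factor Igf1 at 0.52, the complement regulator Cd55 at -0.88 and the protein C receptor Procr at -0.76 (adjusted p = 0.402, 0.402 and 0.451). The most abundant on the array, the small proteoglycans Dcn and Lum and the actin-binding Gsn, differed by -0.15, -0.14 and -0.14. After normalisation, groups did not overlap for 5 of the 32 genes in the lower direction and 1 in the higher, against 7.76% and 9.23% of all tested genes.

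**Figure D5:**
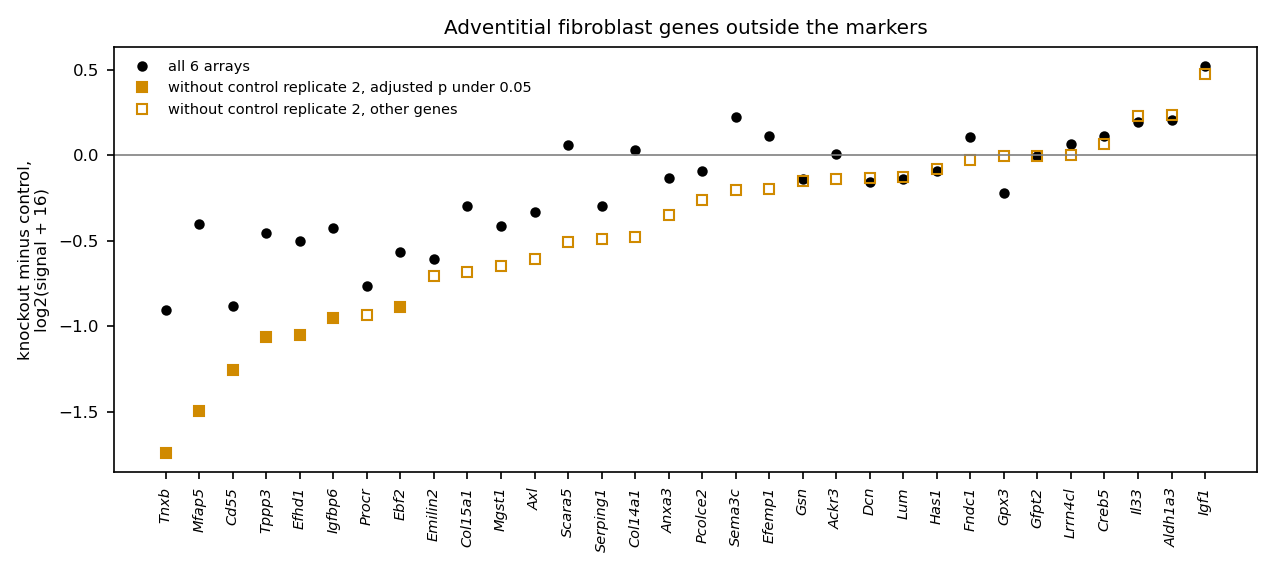
Knockout minus control difference in log2(signal + 16) (vertical axis) of 32 adventitial fibroblast genes, with all 6 arrays (black) and without control replicate 2 (orange, filled where the adjusted p was under 0.05). The 7 filled genes are all below 0, and Igf1 is the highest in both.

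The order of arrays seen for Clec3b also ran through 10 of these 32 genes: Anxa3, Axl, Col14a1, Col15a1, Efhd1, Igfbp6, Mfap5, Pcolce2, Tnxb and Tppp3. Mfap5, a microfibril glycoprotein, had signals of 445.9, 442.5 and 723.6 in knockout arrays, against 1538.2, 122.2 and 1214.8 in control arrays. Tnxb, the matrix protein tenascin X, had 125.1, 142.5 and 254.0 in knockout arrays, against 522.8, 78.2 and 550.6 in control arrays. For both, the knockout values lay between control replicate 2 and the other controls, and the groups overlapped. Without control replicate 2, 7 of the 32 were lower and 0 higher at an adjusted p under 0.05, where 1.88% and 0.788% of all tested genes were. They were Tnxb (-1.74, limma adjusted p = 0.00921), Mfap5 (-1.50), Cd55 (-1.26), Tppp3 (-1.06), Efhd1 (-1.05), Igfbp6 (-0.95) and Ebf2 (-0.89), the last a transcription factor of mesenchymal progenitors.

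Genes of suture and periosteal mesenchyme did not share the order of arrays in any of the 19 tested. Of these, 16 lay above 0 and 3 below, where 51.7% of all tested genes lay below 0. The median was 0.26, and 0 passed. With the deposited scaling all tested genes shifted upward by a median of 0.14, so these values are relative to the scaling. Tnmd, tenomodulin, had signals of 2200.4, 2468.8 and 2641.9 in knockout arrays, against 1669.8, 1698.2 and 1370.0 in control arrays, without overlap (0.47 ± 0.10, SE, limma adjusted p = 0.240). Lepr, the leptin receptor of stromal cells, differed by 0.68 and Erg, a transcription factor also in the endothelial list, by 0.62. Tnn, tenascin N, differed by 0.57 (limma adjusted p = 0.348, 0.267 and 0.327 for Lepr, Erg and Tnn). After normalisation the groups did not overlap for these 4 genes and Gli1 in the higher direction, 5 of 19 against 9.23% of all tested genes, and for Cd200 in the lower, against 7.76%. Postn, periostin, and Cd200, a surface glycoprotein, the other abundant members, differed by 0.06 and -0.29. Without control replicate 2, Lepr, Tnn and Tnmd were called higher (limma adjusted p = 0.0146, 0.0174 and 0.0399) and 0 lower, where 0.788% and 1.88% of all tested genes were. Lists of other cell types also had medians above 0. Of 15 chondrocyte genes 14 were above 0, with a median of 1.24, 11 higher without overlap and 1 lower, and 0 passed. The lower gene was Col11a2, among the most abundant of the list (-0.41, limma adjusted p = 0.316). Acan, the cartilage proteoglycan aggrecan, had signals of 392.6, 488.4 and 387.2 in knockout arrays, against 161, 115 and 113.9 in control arrays (1.44 ± 0.18, SE, limma adjusted p = 0.120). Of 8 meningeal genes 6 were above 0, with a median of 0.23, and Slc47a1, Bnc2 and Zic1 were higher without overlap (1.88, 1.22 and 0.41, limma adjusted p = 0.120, 0.120 and 0.288). Ptgds and Aldh1a2 lay below 0, at -1.04 and -0.16. Of 9 tendon genes 5 were above 0, with a median of 0.46, and Fmod and Tnmd were higher without overlap. Without control replicate 2 the medians were 1.05 for chondrocyte, 0.20 for meningeal and 0.06 for tendon genes, so the tendon median rested on that array. Tnmd, Mkx and Scx are in both the suture and the tendon list. Without control replicate 2, 4 chondrocyte genes (Acan, Col9a3, Cnmd and Col9a2), 3 meningeal genes and 1 tendon gene (Tnmd) were called higher and 0 lower. The part of cartilage, meningeal or tendon cells in the suture list, and the difference between that list and the markers, were not tested.

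Ligands and receptors of the PDGF system stayed near 0 together with Pdgfra. All 8 listed genes were tested, and 0 passed with or without control replicate 2. Of the 8, 6 lay below 0, against 51.7% of all tested genes, and the median was -0.07. The second receptor, Pdgfrb, had signals of 1817.2, 1560.3 and 2217.3 in knockout arrays, against 1848.9, 1587.2 and 1535.2 in control arrays, a difference of -0.02 ± 0.08 (SE, limma adjusted p = 0.965). The ligands Pdgfa and Pdgfd differed by -0.12 and -0.34, the co-receptor Nrp1 by -0.11 and the receptor-like Pdgfrl by 0.10.

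Relatives of the marker genes differed in both directions. Of 28 listed genes 25 were measured and 15 tested, of which 4 lay above 0, 11 below and 0 passed. Of all tested genes, 51.7% lay below 0. After normalisation the groups did not overlap for 1 of the 15 in the higher and 2 in the lower direction, against 9.23% and 7.76% of all tested genes. Crispld1, like Pi16 a protein of the CAP family, had signals of 286.4, 316.2 and 361.6 in knockout arrays, against 183.3, 164.1 and 137.1 in control arrays, without overlap and in the direction opposite to Pi16 (0.79 ± 0.10, SE, limma adjusted p = 0.133). Pi15 and Glipr2, of the same family, differed by -0.88 and -0.63 (limma adjusted p = 0.319 and 0.329), without overlap after normalisation. Fap, the fibroblast activation protein and closest relative of Dpp4, had signals of 4573.4, 4160.1 and 5750.1 in knockout arrays, against 6087.9, 6459.1 and 3929.7 in control arrays, with control replicate 2 the highest (-0.34 ± 0.14, SE, limma adjusted p = 0.472). Without control replicate 2, Crispld1 was called higher and Glipr2 lower (limma adjusted p = 0.0174 and 0.0388), 1 of 15 each, against 0.788% and 1.88% of all tested genes.

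Binding partners and substrates of the marker proteins were tested for 19 of 23 listed genes, with 0 past the threshold. Of the 19, 7 lay above 0 and 12 below, against 51.7% of all tested genes below 0, and the median was -0.08. Plau, the urokinase that activates the plasminogen bound by tetranectin, had signals of 66.2, 34.9 and 43.8 in knockout arrays, against 63.1, 180.4 and 105.1 in control arrays, and was highest in control replicate 2 (-1.10 ± 0.37, SE, limma adjusted p = 0.402). Mmrn2, a matrix ligand of the endosialin family, and Col4a1, a basement membrane collagen, differed by -0.45 and -0.39 (limma adjusted p = 0.477 and 0.503). Ccl11, a chemokine cut by Dpp4, had signals of 81.2, 54.8 and 165.3 in knockout arrays, against 292.4, 63.4 and 251.0 in control arrays. Cxcl12, another substrate of Dpp4, differed by 0.01, and Cav1, a caveolar protein bound by Dpp4, by -0.59. Without control replicate 2, Cav1, Ccl11 and Col4a1 were called lower (limma adjusted p = 0.00903, 0.0294 and 0.0173) and 0 higher, where 1.88% and 0.788% of all tested genes were.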

How the data were processed

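The authors deposited 1 intensity per probe set and array on a linear scale. Per the submitters' processing notes the software was GCOS, with no version, background correction or scaling target stated. Detection calls were left aside, so dim values carry no bound. The number of arrays limits the precision.

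Here log2(signal + 16) was quantile normalised across the arrays. The array holds 45101 probe sets, of which 64 are controls and were dropped. The annotation gave 1 gene for 34945, several for 932 and none for 9160, and symbols were updated by RefSeq gene identifier. Each gene was read from its brightest probe set on average, and the lowest 40% of 18193 genes were left out. Genotypes were compared in R 4.3.3 with limma 3.58.1 (lmFit, eBayes with a trend, 2-sided, no covariate). The fit was tested on simulated data, 10 runs with 200 of 10916 genes changed 2-fold, and recovered 72.8% of them with 8.6 false calls a run. That share is a mean over all changed genes. It gives no rate for genes as variable as Clec3b, Pi16, Dpt and Cd34, with control SDs of 0.85 to 1.90. When an array was left out, normalisation and filter stayed those of 6 arrays. Scaling, pseudocount, filter, probe set rule, trend, array weights and block were varied.

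Members and lists were chosen with earlier results of these data known. Named genes are all members, up to 4 genes per list by p, the 3 most abundant of each cell type list, Esr1, and the genes of most similar profile. Genes named for the order of arrays or for a call without control replicate 2, with Gli1, Adipoq, Fgf23, Cxcl12, Pdgfrb, Pdgfrl and Ptgds, were chosen after their values were seen. Same-numbered arrays did not deviate together (r of -0.38, 0.10 and -0.04), so the numbers were not used as pairs.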

Additional observations from a re-analysis of the deposited data

How the results depend on the processing

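The call of a fibroblast marker depended on control replicate 2, and the cause was not tested. With 1 array left out at a time, the genes higher in knockout numbered 0 to 86, the genes lower 0 to 205, the markers lower 0 to 4 and the marker probe sets past the threshold 0 to 2, the upper value each time without control replicate 2. Genes higher in knockout numbered 30 with the deposited scaling and 1 with median scaling, where the median of all genes moved to 0.14 and 0.04. Markers passed in none of the 10 settings that kept all arrays (scaling, pseudocounts of 1 and 64, no filter or 60% left out, mean of probe sets, no trend, array weights, replicate block), and the median marker difference ran there from -0.89 to -0.44. With the replicate block it was -0.57, and the adjusted p of the 6 markers ran from 0.653 to 0.893. Of 95 single marker values under alternatives, 2 turned sign: Pi16, which ran from -1.61 to 0.16 with 1 array left out, and Cd248, from -0.013 to 0.15. Among 104 probe set values, 9 turned sign: those 2, a Pdgfra probe set at 0.066 with the deposited scaling and from -0.22 to 0.069 with 1 array left out, a Dpp4 probe set from -0.67 to 0.35, and another at 0.012 with the deposited scaling and from -0.16 to 0.059. Pi16 was not tested with 60% of genes left out.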
